A study of Mus musculus with 12 samples.

Results

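The cytosolic ribosomal protein genes encode the protein part of the ribosome that translates nuclear-encoded messenger RNA. They were taken from a table of read counts per gene in mouse lung. A row was a member when its gene was annotated as protein-coding in GENCODE M21, its symbol was Rps or Rpl followed by a number (with or without a final a, x or l) or Rpsa, Rplp0, Rplp1 or Rplp2, and its counts summed over all 12 libraries reached 10. This gave 80 genes of 59136 entries in the table, 31 of the small subunit and 49 of the large subunit. Of 83 rows with a matching symbol, 3 (Rps4l, Rpl6l and Rpl32l) were annotated as pseudogenes and were not members. No protein-coding row was lost to the limit of 10 counts, and the rows just inside it were Rpl10l with 11 counts and Rpl39l with 28, followed by Rpl3l with 134.

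The series compared lung of mice carrying changes in Iars1, the gene of the cytosolic isoleucyl-tRNA synthetase that loads isoleucine onto its tRNA, with wild-type lung. Poly(A) RNA was sequenced from 6 libraries labelled WT and 6 labelled Mut, all from day 28. The series text gives the mutant mice as IARS1-TYR148CYS/ARG444*, that is, 1 missense and 1 nonsense change, whereas the sample labels call the Mut samples IARS1 knockdown. The samples are labelled both as lung and as lung primary cells, and nothing states strain, sex or whether each library came from a separate mouse. Iars, the symbol of Iars1 in the annotation, ranged from 35.6 to 58.4 CPM (counts scaled to library size with TMM factors) in WT with a median of 46.3, and from 41.4 to 71.6 in Mut with a median of 53.6. The difference was 0.29 on the log2 scale (SE 0.14, edgeR adjusted p = 0.190). Counts per gene do not separate the alleles, so this level does not check the genotype and the groups rest on the labels.

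Library totals ran from 17118716 to 24014890 counts, and members took 1.53% to 2.71% of them. Markers of alveolar type 2 cells were abundant in every library (summed CPM from 15363 to 30652). The libraries also held markers of B cells, T cells, red cells and heart muscle, with 0 of the listed markers at 0 counts throughout. B cell markers passed the test as lower in Mut in 10 of 10 genes (summed CPM 301 to 559 in WT and 161 to 271 in Mut), T cell markers in 9 of 10, red cell markers in 7 of 7 and markers of dividing cells in 9 of 10. Fat markers were called higher in 2 of 4 genes (summed CPM 4.09 to 15.6 in WT and 9.24 to 53.7 in Mut) and fibroblast markers in 2 of 4, while of 5 alveolar macrophage markers 1 was higher and 2 were lower. In bulk lung, fewer cells of a type and less RNA per cell cannot be told apart.

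Each ribosome holds a single copy of nearly every ribosomal protein, and cells make these proteins in matched amounts together with ribosomal RNA. Most of their messenger RNAs begin with a run of pyrimidines at the cap, the terminal oligopyrimidine or TOP tract, through which the kinase mTOR adjusts their translation when amino acids or growth signals change. Mammalian genomes also carry many processed copies of these genes, pseudogenes made by reverse transcription of the messenger RNA, and some have nearly the sequence of the parent.

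The start-site windows below are examples with and without such a tract. They run from 30 bases before the annotated first transcribed base to 20 bases from it on, in RefSeq's annotation of GRCm38.p6, and capitals mark a C followed by at least 4 pyrimidines within 5 bases of that start. Rps6 (chr4:86857348-86857397, minus strand), Rplp2 (chr7:141447621-141447670, plus), Rps9 (chr7:3704011-3704060, plus) and Rps27 (chr3:90213629-90213678, minus) hold such a tract. Rpl3l (chr17:24727796-24727845, plus), a copy expressed in striated muscle, holds none there, and neither do Rplp0 and Rpl4, whose windows are not printed. The call rests on the annotated start, and Rpl4 has a pyrimidine run just upstream of that limit. A window without a marked tract therefore does not show that the messenger RNA lacks one.
Rps6: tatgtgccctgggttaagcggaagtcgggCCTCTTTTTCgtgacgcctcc
Rplp2: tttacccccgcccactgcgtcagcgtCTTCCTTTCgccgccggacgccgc
Rps9: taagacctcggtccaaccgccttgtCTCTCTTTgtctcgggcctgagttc
Rps27: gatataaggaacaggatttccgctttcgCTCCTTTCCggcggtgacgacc
Rpl3l: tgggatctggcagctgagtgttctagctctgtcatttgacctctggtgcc
RefSeq gave a window for 60 of the 80 members. The tract, read on the gene's own strand, was present in 28 of them (46.7%) and in 21.5% of the windows of 17492 protein-coding genes. Searched on both strands of the 300-base windows (250 bases before the start and 50 after), CCGGAAG, the core bound by ETS-family factors, was found in 41.7% of members and 12.9% of all coding genes. GGGCGG was found in 60.0% against 49.2%, TATAAA in 6 of the 60 against 14.8%, and CTCTTT, which can lie inside the tract, in 27 of the 60 against 24.3%. The 28 tested members with a tract by this rule had a median Mut minus WT difference of -0.09 on the log2 scale, and so had the 30 tested members without one. Since runs further from the annotated start, as in Rpl4, count as absent, this split cannot compare TOP with other messenger RNAs.

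Levels were compared between genes in FPKM, which divides by the length of the gene model. These lengths were uneven: 499 bases for Rplp1 and 6270 for Rps15a, whose longest coding sequences had 342 and 390 bases. The order of genes below thus depends in part on the models. The median member had a mean of 111 FPKM over all libraries, and 44 of 80 members were above 100. Rplp1, an acidic protein of the stalk that recruits translation factors, was highest, with 652 to 1388 FPKM in WT (median 945) and 573 to 1022 in Mut (median 701). Rps15, a small-subunit protein, followed with medians of 506 FPKM in WT and 459 in Mut, and Rps4x, the X-linked form of RPS4, with 524 and 452. In WT every library of Rplp1 lay above every library of Rps4x (424 to 588 FPKM), while Rps15 (369 to 817) overlapped both, so the order of Rps15 is not fixed by the data. At the other end, Rpl10l, Rpl39l and Rpl3l had means of 0.05, 0.14 and 0.35 FPKM. Their counterparts Rpl10, Rpl39 and Rpl3 had medians of 270, 84.2 and 194 FPKM in WT.

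**Figure D1:**
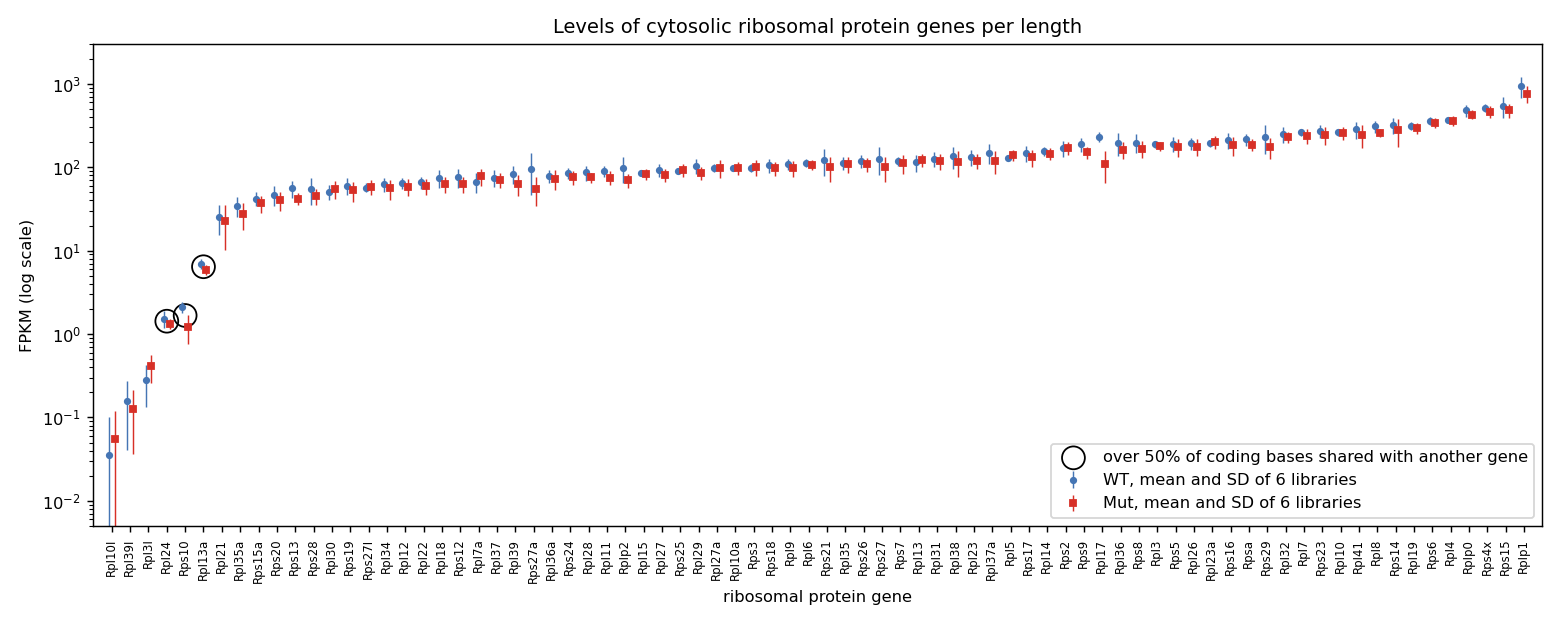
Mean level of the genes in WT (blue circles) and Mut (red squares) in FPKM on a log scale, with the SD over 6 libraries, ordered by the mean of all libraries. Rplp1 is highest and Rpl10l lowest, and the circled Rpl24, Rps10 and Rpl13a share over 50% of their coding bases with another annotated gene.

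After Rpl3l the next lowest levels belonged to Rpl24, Rps10 and Rpl13a, with means of 1.43, 1.67 and 6.41 FPKM. These were the 3 members with over 50% of their coding bases annotated in a further gene on the same strand. The shares were 83.4% for Rpl24 with Gm28037, 80.1% for Rps10 with RPS10-NUDT3 and 90.3% for Rpl13a with Gm45713. Rpl19 shared 13.6%. How the counting treated reads in shared bases is not given in the sources used here, so the levels of Rpl24, Rps10 and Rpl13a are uncertain. Of the 80 members, 69 had over 50 CPM in every library.

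Few ribosomal protein genes differed between Mut and WT by more than the spread between libraries. Of the 78 members with enough counts to be tested, 2 fell, Rpl17 and Rps10, and 0 rose, at an adjusted p under 0.05 in edgeR's quasi-likelihood test over all 19004 genes tested. Over all genes, 5.31% were called lower, 4.57% higher and 9.89% in either direction. That was 869 genes higher and 1010 lower, a split that became 518 against 1513 when only library totals set the scale and 648 against 1242 under upper-quartile factors. Rpl17 and Rps10 were the members called under both. Without adjustment 5 members had a p under 0.05, against 27.7% of all genes. The remaining 30 small-subunit and 46 large-subunit genes did not pass.

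Most members had small negative differences. The log2 difference was negative for 64 and positive for 14 of the 78, with a median of -0.09 where the median of all genes was 0.01. The small subunit had a median of -0.13 over 31 genes and the large subunit -0.09 over 47. With a median SE of 0.15, the 95% interval of a member's difference lay within 1.5-fold of no change for 58 members and within 2-fold for 74, and it excluded 0 for 5. No tested member had groups that did not overlap, where 2.39% of all genes had every Mut library below every WT library and 2.18% had the reverse. The median moved to 0.00 without WT replicate 4 and to -0.20 without Mut replicate 7, the libraries with the highest member levels in their groups. B cell, T cell, red cell and dividing-cell markers were lower in Mut at the same time, and fat and fibroblast markers were in part higher. Their part in this small difference was not tested.

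**Figure D2:**
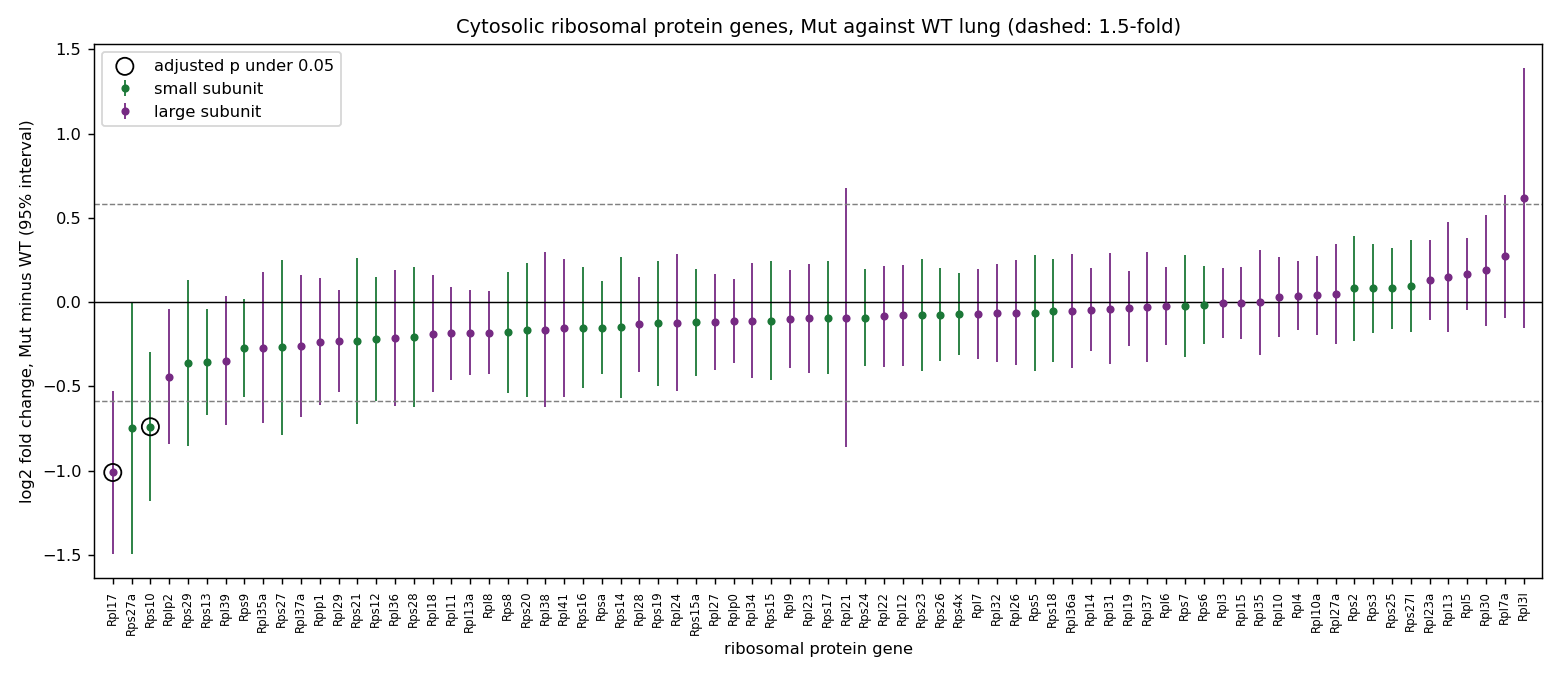
Log2 difference of tested genes, Mut minus WT, with its 95% interval, small-subunit genes in green and large-subunit genes in purple, ordered from lowest to highest. Rpl17 and Rps10 are circled as passing an adjusted p of 0.05, and most intervals lie between the dashed lines at 1.5-fold.

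Rpl17, a large-subunit protein that lines the exit tunnel for the growing peptide, had the lowest p and the largest fall. Its locus is chr18:74998558-75003381 on the plus strand of GRCm38. It ranged from 134 to 207 CPM in WT with a median of 177, and from 48.9 to 143 CPM in Mut with a median of 85.7. Mut replicates 1, 2, 4, 5 and 7 lay below every WT library, and replicate 3 lay above WT replicate 7 only. The difference was -1.01 on the log2 scale (SE 0.23, edgeR adjusted p = 0.0141). With no low-count filter the adjusted p was 0.0666, and over all alternatives it ranged from 0.000195 to 0.637, the latter with its processed copies added.

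Its processed copy Rpl17-ps10 moved the other way. This single-exon copy lies at chr7:72648757-72649311 on the minus strand, and its 555 bases match the Rpl17 transcript at 99.3%, with 4 substitutions and a longest identical run of 403 bases. It had 56.9 to 128 CPM in WT with a median of 70.7, and 97.7 to 232 CPM in Mut with a median of 140. WT replicate 4, at 128 CPM, was the only WT library above any Mut library, and lay above Mut replicates 2 and 3. The copy was higher in Mut by 0.93 on the log2 scale (SE 0.21, edgeR adjusted p = 0.0147).

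Summed, the gene and this copy differed little between the groups, at 254 ± 42.0 CPM in WT and 235 ± 55.8 in Mut (SD, n = 6 each). Rpl17 made up 69.9% ± 6.12 of that sum in WT and 37.1% ± 12.9 in Mut (SD, n = 6 each). The shares did not overlap: the lowest WT share was 61.2% in replicate 4 and the highest Mut share was 59.3% in replicate 3. This pair was chosen because both rows were called, so these values are a description with no test. With the counts of the 11 processed copies named after Rpl17 added to it, the Rpl17 difference was -0.12 (SE 0.15, edgeR adjusted p = 0.637). Rpl17-ps3 on chromosome 12, 99.6% identical to the transcript, differed by -0.22 (edgeR adjusted p = 0.404). The fall of Rpl17 and the rise of Rpl17-ps10 left their sum within the spread between libraries. Whether reads that match more than 1 row were counted, shared or dropped is not given in the sources used here.

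**Figure D3:**
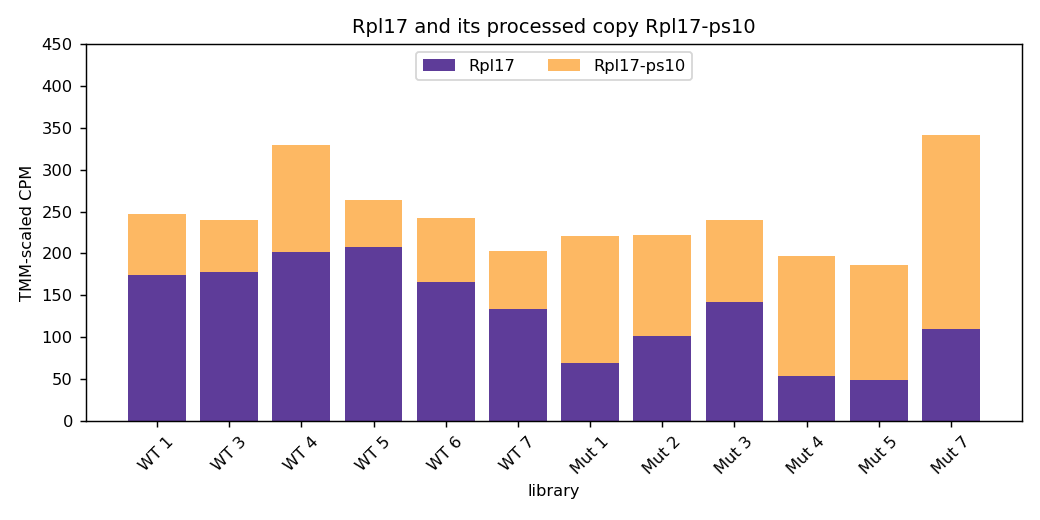
Stacked TMM-scaled CPM of Rpl17 (purple) and its processed copy Rpl17-ps10 (orange) in each of the 12 libraries. The purple part is 61.2% or more of each WT bar and 59.3% or less of each Mut bar, while the bar heights of the groups overlap.

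Rps10, a protein on the head of the small subunit, was the other member that fell. It had 3.74 to 5.70 CPM in WT with a median of 4.75, and 1.83 to 4.84 CPM in Mut with a median of 2.66. Mut replicates 1, 2, 3, 4 and 7 lay below every WT library, and replicate 5 lay within the WT range. The difference was -0.74 (SE 0.21, edgeR adjusted p = 0.0360), and the call held in 4 of the 12 fits that left out 1 library, with adjusted p from 0.00869 to 0.0783. With GC and length trends removed the adjusted p was 0.0760, and with scaling to the members' summed counts 0.224. Only 892 counts over all libraries were assigned to Rps10, and 13984 to the 4 processed copies named after it, which held 94.0% of the sum.

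Most of those copy counts, 12264, were on Rps10-ps2 (chr16:20822145-20822640, minus strand), which had medians of 50.6 CPM in WT and 51.4 in Mut (difference -0.04, edgeR adjusted p = 0.868). Over 496 aligned bases it differs from the Rps10 transcript by 5 substitutions, with a longest identical run of 392 bases. The stretches below, bases 384 to 473 of both sequences in GENCODE M21, hold all 5 substitutions, in capitals, and are shown because reads elsewhere in the aligned bases cannot tell the gene from the copy.
Rps10: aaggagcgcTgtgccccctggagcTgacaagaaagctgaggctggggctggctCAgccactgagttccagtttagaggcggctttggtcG
Rps10-ps2: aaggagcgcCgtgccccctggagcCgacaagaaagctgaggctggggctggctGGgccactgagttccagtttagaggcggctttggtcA
Gene and copies together differed by -0.10 (SE 0.13, edgeR adjusted p = 0.668). With the copies named after each member added to it, 0 members were called in either direction.

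The table held 291 pseudogene rows named after a member, with or without a number, for 59 members. Counts were present on 263 of them, 79 had enough counts to be tested, and 1 was called higher (Rpl17-ps10) and 1 lower, where 9.89% of all genes were called in either direction. The lower one, Rps13-ps2, had 3.27 to 8.94 CPM in WT and 2.16 to 4.08 in Mut, a difference of -0.85 (SE 0.25, edgeR adjusted p = 0.0440). These copies held over 10% of the summed counts for 11 members, Rpl21 with 35.2% and Rpl14 with 31.0% among them, and over 50% for 2, Rps10 and Rpl17. Copies under other names were not searched for, so their counts are not in these shares.

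Among the remaining small-subunit genes, Rps13 ranged from 106 to 215 CPM in WT (median 144) and from 85.8 to 139 in Mut (median 117). All 6 Mut libraries lay below the WT median, but the groups overlapped, and the difference of -0.36 (SE 0.15) had an edgeR adjusted p of 0.130, and was -0.22 (0.294) without WT replicate 4. Rps9, whose bacterial counterpart is among the first to bind ribosomal RNA during assembly, differed by -0.27 (edgeR adjusted p = 0.210), with 1 Mut library above the WT median. Rps6, the target of the S6 kinases downstream of mTOR, had medians of 561 CPM in WT and 549 in Mut and a difference of -0.02 (95% interval -0.25 to 0.21). Rpsa, also known as the laminin receptor, differed by -0.15 (-0.43 to 0.12), and Rps4x by -0.07 (-0.32 to 0.17).

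Rps27a is made as a fusion with ubiquitin. It had 83.3 to 366 CPM in WT with a median of 171, and 64.5 to 167 in Mut with a median of 102. Every Mut library lay below the WT median, but the groups overlapped, since WT replicate 3 lay below 4 of the 6 Mut libraries. The difference of -0.75 (SE 0.34) had an edgeR adjusted p of 0.180, and was -0.44 (0.408) without WT replicate 4. Small-subunit genes with positive differences were Rps27l, a copy of Rps27 known in human cells as a target of p53, with 0.09, Rps25 with 0.08, Rps3, which faces the messenger RNA entry channel, with 0.08, and Rps2 with 0.08. Adjusted p was 0.668 or above for these 4 in edgeR, and leaving out 1 library turned the sign for Rps25, Rps3 and Rps2.

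In the large subunit, the stalk proteins had negative differences, none of which passed the test. Rplp2 had 142 to 347 CPM in WT with a median of 184, and 112 to 180 in Mut with a median of 146. All Mut libraries lay below the WT median, and 3 of them below every WT library. Its difference was -0.44 (SE 0.19, edgeR adjusted p = 0.141), and -0.22 (0.325) without WT replicate 4. Rplp1, its partner, differed by -0.24 (edgeR adjusted p = 0.403) and Rplp0, the base of the stalk, by -0.11 (0.555).

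Rpl39, a small protein of the exit tunnel, had 84.3 to 167 CPM in WT (median 118) and 67.6 to 141 in Mut (median 84.3). Its difference of -0.35 (SE 0.18, edgeR adjusted p = 0.223) became -0.51 with an adjusted p of 0.0470 when Mut replicate 7 was left out, the 1 of 26 alternatives that called it, and -0.22 with an adjusted p of 0.472 without WT replicate 4. Rpl29 and Rpl8 differed by -0.23 and -0.18 (edgeR adjusted p = 0.307 and 0.318). Rpl3, at the peptidyl transferase centre, and Rpl10, which joins late in assembly, differed by -0.01 (95% interval -0.21 to 0.20) and 0.03 (-0.21 to 0.27).

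Some large-subunit genes had positive differences, none of which passed the test. Rpl5, which with Rpl11 carries the 5S ribosomal RNA and can bind Mdm2, had 454 to 550 CPM in WT (median 500) and 469 to 723 in Mut (median 553), with 4 of 6 Mut libraries above the WT median. The difference was 0.17 (SE 0.10, edgeR adjusted p = 0.287). Rpl7a had a median of 113 CPM in WT and 150.4 in Mut, a difference of 0.27 (SE 0.17, 0.317). Rpl30, Rpl13 and Rpl23a differed by 0.19, 0.15 and 0.13, with edgeR adjusted p of 0.454, 0.558 and 0.476.

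The tissue-restricted copies were rare. Rpl3l, the striated muscle form of Rpl3, had 0.12 to 0.77 CPM in WT (median 0.45) and 0.32 to 0.93 in Mut (median 0.81), and 4 of 6 Mut libraries lay above every WT library. The difference of 0.62 (SE 0.36) rested on 134 counts and had an edgeR adjusted p of 0.283. Summed heart muscle markers were 144 to 611 CPM in WT and 238 to 1521 in Mut, with 0 of 5 called, and their part in the Rpl3l values was not tested. Rpl10l and Rpl39l, forms known from testis, fell below the low-count filter and have no test here.

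These genes varied together between libraries of the same group. Within WT, the highest library exceeded the lowest by a median of 1.78-fold over the 78 tested members, and within Mut by 1.73-fold. WT replicate 4 was the highest WT library for 67 members and WT replicate 7 the lowest for 75. In Mut, replicate 7 was highest and replicate 5 lowest for 66 members each. Over all genes tested, these shares were 28.0% for WT replicate 4, 22.8% for WT replicate 7, 22.6% for Mut replicate 7 and 18.5% for Mut replicate 5.

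Expressed as log2 CPM relative to the WT mean, the median of 77 members (without Rpl3l) was 0.44 in WT replicate 4 and -0.36 in WT replicate 7. In Mut it was 0.39 in replicate 7 and -0.42 in replicate 5, and the other libraries lay between -0.30 and 0.09. The median of all genes stayed within 0.03 of 0 in every library, which the TMM scaling largely sets in advance. Averaged over libraries, the median member was at 0.00 ± 0.27 in WT and -0.10 ± 0.29 in Mut (SD, n = 6 each). Members took 2.12% ± 0.348 of all counts in WT and 1.91% ± 0.362 in Mut.

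**Figure D4:**
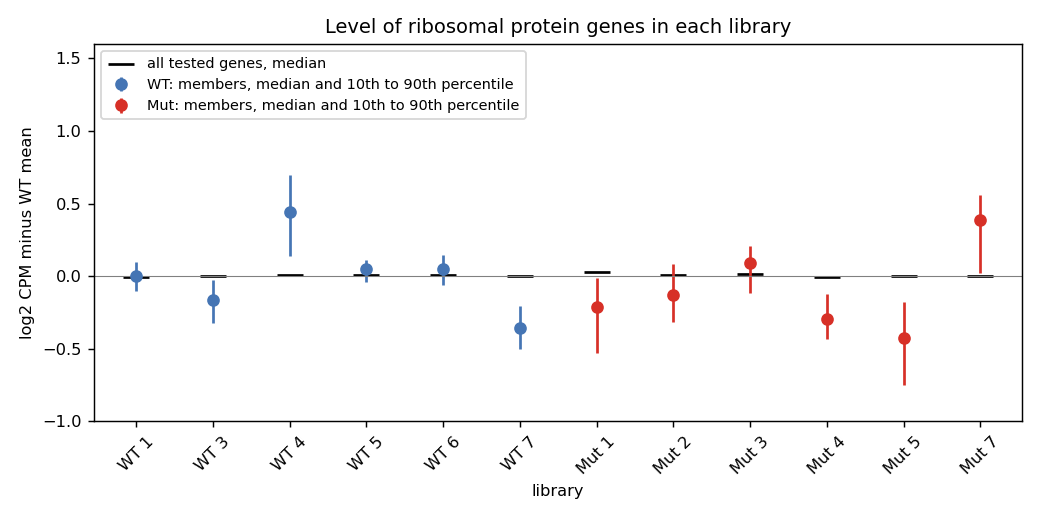
Median log2 CPM of 77 ribosomal protein genes in each library relative to the WT mean, with the 10th to 90th percentile of genes as bars (WT blue, Mut red) and the median of all tested genes as a black dash. WT replicate 4 and Mut replicate 7 are high, WT replicate 7 and Mut replicate 5 are low, and both groups span 0.

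A single shared component carried 83.5% of the variance of the 77 members around their group means. Each member's slope on the median member gives the size of its change per change of the median, with a slope of 1 meaning equal steps. A steep slope does not show that a gene kept closely to the pattern. Rpl21 had the steepest slope, at 2.19, ahead of Rps27 and Rps29 at 1.62 each, Rps21 at 1.59 and Rps27a at 1.52. Rpl21 had 50.8 to 128 CPM in WT and 41.8 to 139 in Mut. It was as high in WT replicate 5 (128.1 CPM) as in WT replicate 4 (127.9). Mut replicate 3 (130.9) was close to Mut replicate 7 (138.5). Processed copies held 35.2% of the summed Rpl21 counts. Summed with its copies, Rps27a was lowest within WT in replicate 3 (89.2 CPM). In Mut that sum was nearly as high in replicate 4 (171.5) as in replicate 7 (172.1). Rpl7a, at -0.04, and Rps10, at 0.08, did not follow the pattern, and Rpl5, Rpl4 and Rpl3 had shallow slopes, at 0.47, 0.50 and 0.55. The Rps10 slope rests on 892 counts, since the processed copies named after Rps10 held 94.0% of the summed counts. Summed with them, Rps10 was highest in WT replicate 4 (87.6 CPM) and Mut replicate 7 (85.3). The sum was lowest in Mut replicate 5 (49.1) and, in WT, in replicate 3 (56.7).

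Steeper slopes belonged to shorter coding sequences. Across the 77 genes, coding length and slope had a Pearson correlation of -0.57 and a Spearman correlation of -0.63, and coding length and the Mut minus WT difference 0.28 and 0.36. The genes share the same 12 libraries and are not independent replicates. When trends on GC content and length were removed from each library, the median member difference was -0.01 and Rpl17 alone was called. Summed counts of the 291 pseudogene rows named after members took the largest shares in WT replicate 4 (0.128%) and Mut replicate 7 (0.121%). The members were also highest there, and these rows took 0.0722% to 0.0914% in the other libraries. RNA quality values were not among the labels, and what sets the library pattern was not tested.

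**Figure D5:**
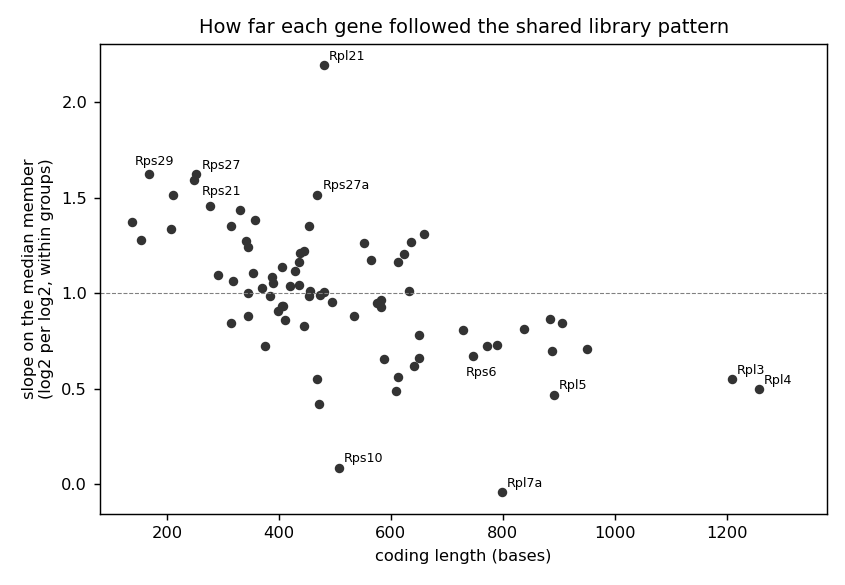
Slope of each of 77 genes on the median member across libraries within groups, against coding length in bases. The dashed line marks a slope of 1; short genes such as Rps29 and Rps27 lie above it and long ones such as Rpl3 and Rpl4 below.

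Cytosolic ribosomal protein genes and related genes whose symbols the selection missed did not pass the test either. Of 8 listed, 7 were tested and 0 were called in edgeR. In that test 1 had an unadjusted p under 0.05, where 27.7% of all genes had one, and the median difference was -0.17. Rpl22l1, a copy of Rpl22, had 26.2 to 51.7 CPM in WT (median 36.2) and 17.7 to 40.4 in Mut (median 22.2), a difference of -0.51 (SE 0.20, edgeR adjusted p = 0.119). Fau, which is made as a fusion with a ubiquitin-like protein, differed by -0.27, Rps3a1 by -0.17, Rpl7l1 by -0.16, Rack1, a scaffold on the small subunit, by -0.03 and Rps27rt by 0.03. Rpl36al, with 82 counts, was not tested. The paralog Rps4l, annotated as a pseudogene, differed by -0.23 (edgeR adjusted p = 0.219).

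Of 16 other genes listed for their TOP messenger RNAs, many of them translation factors, 1 was called higher. In edgeR 5 of them had an unadjusted p under 0.05, where 27.7% of all genes had one. Over all genes, 4.57% were called higher and 2.18% had every Mut library above every WT library. The 1 called was Eef1a1, the elongation factor that delivers aminoacyl-tRNA. It had 3736 to 4527 CPM in WT (median 4415) and 5025 to 5984 in Mut (median 5177), so the groups did not overlap. The difference was 0.30 (SE 0.09, edgeR adjusted p = 0.0494), and the call held in 2 of the 12 fits that left out 1 library and in 6 of 26 alternatives in all. The list had a median difference of 0.06. Pabpc1, Eif3e and Eif4b followed with 0.23, 0.25 and 0.22 (edgeR adjusted p = 0.0826, 0.0958 and 0.110).

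Among 14 genes that control ribosomal protein synthesis, 1 was called higher, where 4.57% of all genes were. Eif4ebp1 encodes 4E-BP1, which holds back cap-dependent translation when mTOR is inactive. It had 20.4 to 28.4 CPM in WT (median 22.3) and 36.2 to 61.6 in Mut (median 40.6), with every Mut library above every WT library. The difference was 0.93 (SE 0.13, edgeR adjusted p = 0.00116), and all 26 alternative fits called it. Mtor itself differed by 0.36 (edgeR adjusted p = 0.0654), Myc by -0.33 (0.130) and Yy1 by 0.17 (0.142), and the list had a median of 0.12.

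Of 13 genes of ribosome stalling and its quality control, 1 was called higher, where 4.57% of all genes were. Ascc3, a helicase that helps split collided ribosomes, had 31.8 to 41.5 CPM in WT (median 37.2) and 42.9 to 50.2 in Mut (median 46.8), with no overlap. The difference was 0.34 (SE 0.08, edgeR adjusted p = 0.0181), and 21 of 26 alternatives called it. The 5 that did not were the fits with no low-count filter, on FPKM with either pseudocount, with scaling to the members' summed counts and the blocked fit. Map3k20, the kinase ZAK that responds to ribosome collisions, differed by 0.29 (edgeR adjusted p = 0.0526), Ltn1 by 0.20 (0.227) and Zfp598, the mouse form of the ligase that marks Rps10 on collided ribosomes, by 0.14 (0.284). The list had a median of 0.10.

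Ribosome assembly genes gave 0 calls among 52 tested in edgeR, with 11 at an unadjusted p under 0.05, where 27.7% of all genes had one, and a median difference of 0.04. The lowest p values were those of Rrp9 (-0.31, edgeR adjusted p = 0.0671) and Fbl, the methyltransferase of ribosomal RNA (-0.38, 0.0754), followed by Polr1a, the large subunit of RNA polymerase I (0.28, 0.0810), and Nop14 (0.19, 0.108). Chaperones that escort single ribosomal proteins gave 0 calls among 6 tested in edgeR, where 9.89% of all genes were called in either direction. In that test 1 of the 6 had an unadjusted p under 0.05, against 27.7% of all genes. Aamp differed by -0.30 (edgeR adjusted p = 0.0945), Pdcd2l by 0.14 (0.255), Heatr3 by 0.11 (0.444) and Tsr2, the chaperone of Rps26, by -0.06 (0.593).

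Mitochondrial ribosomal proteins, which build the separate ribosome of mitochondria, gave 0 calls among 77 tested in edgeR, with 6 at an unadjusted p under 0.05, where 27.7% of all genes had one, and a median of -0.06. Mrpl42 differed by 0.25 (edgeR adjusted p = 0.0835), Mrpl17 by -0.30 (0.101), Mrps18c by -0.31 (0.136) and Mrps34 by 0.90 (0.153). Mrps34 was low, at 0.54 to 3.77 CPM in WT (median 0.87) and 1.73 to 3.35 in Mut (median 2.49). Its highest WT library lay above every Mut library.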

How the data were processed

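RNA was sequenced from 6 WT and 6 Mut lung libraries, grouped by their labels. The authors deposited read counts per gene and FPKM per gene. FPKM scales counts to library size and gene-model length. Per the submitters' processing notes, mm10 and limma were used, with no role or version stated. The aligner, counter, strand setting and annotation are not given in the sources used here. Gene IDs were joined to GENCODE M21, which named 54409 of 59136 entries.

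Counts were tested with edgeR 4.0.16 (R 4.3.3): TMM scaling, filterByExpr (minimum count 10, minimum total 15), robust quasi-likelihood fit on genotype, Benjamini-Hochberg adjustment over all 19004 genes tested, calls at an adjusted p under 0.05. The fit was tested on simulated data. The biological coefficient of variation was 17.4%, and TMM factors were 0.968 to 1.04. As the labels do not name separate animals, p-values measure the spread between these libraries. Alternatives were other scalings, DESeq2 1.42.0, limma 3.58.1 (voom, and log2 FPKM with a pseudocount of 1 or 0.1), no low-count filter, GC and length trends removed (96.2% of tested genes had both), a replicate block and leaving out libraries. Adding pseudogene counts to parents, and leaving out WT replicate 4 with Mut replicate 7, were chosen after seeing the data. Sequence matches used Biopython 1.88 and figures matplotlib 3.10.9.

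Members and lists were chosen with earlier results of these data known. Named were the 10 tested members with the smallest p in each direction, and the 3 highest and 3 lowest in FPKM. So were tissue-restricted copies with their partners, Rps6, Rpsa, the stalk genes and Rps27a. Ribosomal protein and related genes missed by the symbols, up to 4 genes of each other list, and Iars were also named. Rpl21, Rpl24, Rpl13a, Rpl14, Rpl19, Rpl4, Rps21, Rps29 and the processed copies were named after their values were seen. A few further genes under this rule are not reported here, and the figures that name genes omit 2 members.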

Additional observations from a re-analysis of the deposited data

Results flagged for a closer look

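In 60 groups of 6 libraries, made of named members and Rpl17-ps10, 3 had a highest or lowest library whose gap to the nearest other, divided by the group's range, exceeded Dixon's critical value. Chance gives about 1 such group in 20. Rpl23a was at 132.3 CPM in WT replicate 7, below the other WT libraries, and Rplp2 was at 347.2 CPM in WT replicate 4, above them. The processed copy Rpl17-ps10 was at 127.8 CPM in WT replicate 4, above the other WT libraries. WT replicate 7 was the lowest and WT replicate 4 the highest WT library for most members. Without WT replicate 4, the log2 difference of Rplp2 was -0.22 in place of -0.44. For Rpl17-ps10, fits without 1 library gave 0.75 to 1.13.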

How the results depend on the processing

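Members called higher were 0 in all 26 alternatives, and 0 called results reversed. Uncalled differences of Rpl10, Rpl3, Rps15, Rps2, Rps25, Rps3, Rps4x and Rps6 changed sign in at least 1 alternative, within -0.20 to 0.19. The 2 members called lower became 1 with no low-count filter (Rps10), with GC and length trends removed, with scaling to the members' summed counts and without WT replicate 4 and Mut replicate 7 (Rpl17 in each), and 0 with pseudogene counts added. Leaving out 1 library at a time gave 1 to 3, the 3 without Mut replicate 7, with Rpl17 in all 12 fits. The median member difference ranged from -0.20 to 0.00 in those fits.

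Of the 3 list genes called higher, Eif4ebp1, Ascc3 and Eef1a1, 1 remained (Eif4ebp1) with no low-count filter, on FPKM with either pseudocount and scaled to the members, whereas DESeq2 gave 5 and removed trends 8. List genes called lower were 0, but 1 with upper-quartile scaling, no filter, DESeq2 or without WT replicate 4 and Mut replicate 7, 2 on FPKM and 3 with library totals or removed trends. Without 1 library the higher list genes numbered 2 to 6 and the lower 0 to 3. Library totals moved the median of all genes to -0.05 and that of members to -0.15; over all genes they gave 518 higher and 1513 lower calls, against 869 and 1010. The causes were not tested.

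The 5 replicate numbers present in both groups were tried as a block. Their correlations of deviations, 0.10, -0.13, -0.15, 0.09 and -0.13, did not pair the libraries, and only replicate 1 correlated best with its own number. With the block, 0 members and 1 list gene (Eif4ebp1) were called, and 74 genes were higher and 33 lower in all. The low-count filter removed the members with 11 and 28 counts.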
